A study of Mus musculus with 2 samples.

Results

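Type 1 conventional dendritic cells take up dying cells and present their antigens on MHC class I to CD8 T cells, a process called cross-presentation. Their development depends on the transcription factors IRF8 and BATF3. They are recognised by XCR1, the receptor for a chemokine released by activated lymphocytes, and by CLEC9A (DNGR-1), which binds the actin exposed by dead cells. In skin they are a small part of the CD45+ (immune) cells. The cells described here were chosen by their counts of unique molecular identifiers (UMIs, each counting 1 captured RNA molecule). Each had at least 2 UMIs of Xcr1 and Clec9a together and at least 1 of Irf8. Each had no UMI of Ccr7, which marks migrating mature dendritic cells, no UMI of Cd3e, which marks T cells, and fewer than 20 UMIs summed over S100a8 and S100a9, which neutrophils make in excess. A cell was kept if it showed 200 genes or more and if mitochondrial UMIs made up no more than 10%. On the mm10 build, Xcr1 (ENSMUSG00000060509) lies at chr9:123852315-123862029, Clec9a (ENSMUSG00000046080) at chr6:129408862-129424763 and Irf8 (ENSMUSG00000041515) at chr8:120736358-120756694, all protein-coding in GENCODE M21. The rule found 76 of the 12558 kept cells. They are called members below, because the data went partly against the name type 1 dendritic cell.

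The data are UMI counts from 3' droplet sequencing of CD45+ cells sorted from Liberase-digested full-thickness mouse skin. Skin challenged with DPCP (diphenylcyclopropenone, a contact sensitizer that provokes an allergic skin reaction) was taken on day 2, and control skin carries the label day 0. Cells of each condition carried their own lipid-linked tag and were sequenced as 1 pool. There is thus 1 tagged sample per condition, the number, strain, sex and age of the mice are not given in the sources used here, and no test between conditions was made. All intervals are 95% intervals that cover counting error only. The members comprised 25 DPCP and 51 control cells, with 385691 and 587937 UMIs in all. DPCP members held a median of 16071 UMIs (5800 to 31136) and control members a median of 9633 (1135 to 46382). No barcode sequence was shared between the conditions. Levels are given in CPM, the summed UMIs of a gene per 1000000 UMIs of the same cells.

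Members made up 0.329% of kept DPCP cells, with an exact binomial interval of 0.213 to 0.486, and 1.03% of kept control cells, with an interval of 0.765 to 1.35. Only 2584 of 7588 kept DPCP cells, against 4823 of 4970 kept control cells, had under 20 UMIs of S100a8 and S100a9, so the shares were also taken among those. On that base members were 25 of 2584 DPCP cells (0.967%, 0.627 to 1.42) and 51 of 4823 control cells (1.06%, 0.788 to 1.39), and the intervals overlapped over most of their length. Among kept cells with at least 5000 UMIs the shares were 0.6997% (0.453 to 1.03) in DPCP skin and 1.08% (0.772 to 1.47) in control skin. All 25 DPCP members and 40 of the 51 control members had that depth. Because the rule reads UMIs, these shares are a description of what the rule caught.

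Of all kept cells, 131 had at least 2 UMIs of Xcr1 and Clec9a, 58 in DPCP skin and 73 in control skin. The limit on S100a8 and S100a9 set aside 26 of these in DPCP skin and 1 in control skin. Missing Irf8 set aside 18 in each condition, Cd3e 8 DPCP and 4 control cells, and Ccr7 1 in each, with some cells failing several criteria. The 17 members just inside the rule, with exactly 2 UMIs, had 809.8 CPM of Wdfy4, 45.7 CPM of Tlr3 and 2469 CPM of Tcf4. The 44 cells just outside, with 1 UMI and all else met, had 373 CPM of Wdfy4, 9.18 CPM of Tlr3 and 1162 CPM of Tcf4. Nearly all members qualified through Clec9a: 75 held a Clec9a UMI, 39 held an Xcr1 UMI and 38 held both.

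Beyond the genes in the rule, most members fell into 2 kinds. A list of 18 genes known from type 1 dendritic cells, among them Wdfy4 (needed for cross-presentation), Naaa (a lysosomal amidase), Cadm1 (an adhesion molecule) and Tlr3 (a receptor for double-stranded RNA), was set against Tcf4, the transcription factor that specifies plasmacytoid dendritic cells. A line at 10 Tcf4 UMIs was drawn after the values were seen. Below it were 56 members, 16 DPCP and 40 control, with at most 9 Tcf4 UMIs. Above it were 20 members, 9 DPCP and 11 control, with at least 11. The 56 had a UMI of a median of 13 of the 18 identity genes (5 to 18), and the 20 of a median of 3 (1 to 11). An Xcr1 UMI was found in 38 of the 56 and in 1 of the 20.

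**Figure D1:**
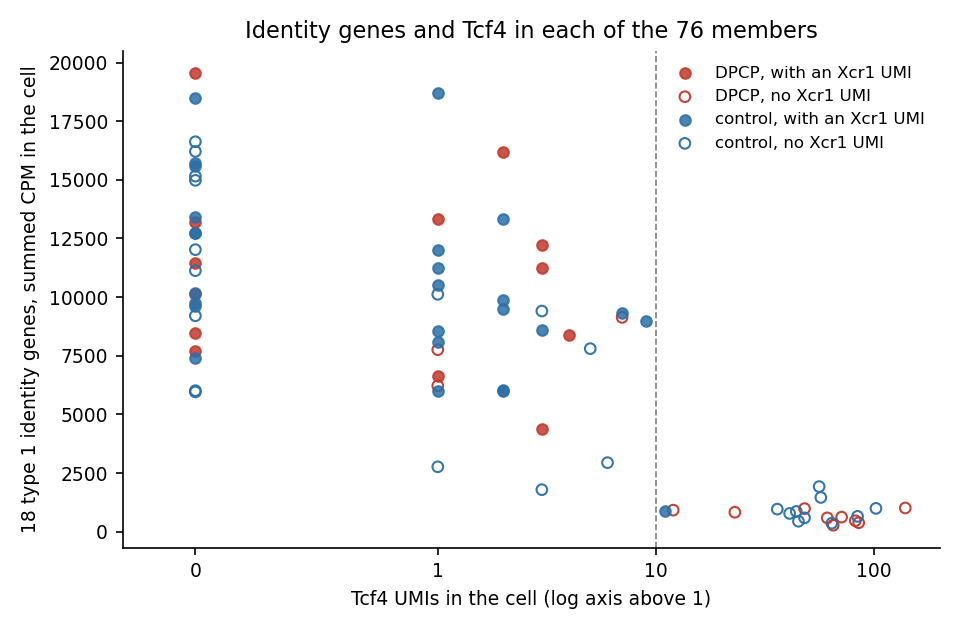
Each point is 1 of the 76 members, with its Tcf4 UMIs on the horizontal axis (log axis above 1) and the summed CPM of 18 identity genes on the vertical axis; filled points hold an Xcr1 UMI, red points are DPCP and blue points control. The 20 cells right of the dashed line at 10 Tcf4 UMIs lie at 1923 CPM or below on the vertical axis in both conditions.

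In the members with under 10 Tcf4 UMIs the identity genes summed to 9637 CPM in the median DPCP cell (4365 to 19540) and 9812 CPM in the median control cell (1789 to 18684). In those with at least 10 Tcf4 UMIs the median DPCP cell had 620.7 CPM (274 to 1011) and the median control cell 862 CPM (362 to 1923). The ranges of the 2 kinds did not overlap in DPCP skin and overlapped in control skin at their ends. Wdfy4 stood at 2609 CPM (2427 to 2802) in DPCP and 1953 CPM (1825 to 2088) in control cells of the first kind, with a UMI in every cell. In the Tcf4-high cells it stood at 105 CPM (50.2 to 192) in DPCP and 205 CPM (138 to 292) in control cells. Naaa was at 2027 CPM in DPCP and 1688 CPM in control cells with low Tcf4, against 62.8 and 95.5 CPM in DPCP and control cells with high Tcf4. Tlr3 had a UMI in 40 of the 56 Tcf4-low cells and in 0 of the 20 Tcf4-high cells, where 3 counts would correspond to 12.4 CPM. Clec9a and Irf8, which the rule demanded, were present in both kinds: Clec9a at 427 CPM (381 to 477) in the first and 281 CPM (218 to 356) in the second, Irf8 at 1564 and 1718 CPM.

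Most of the Tcf4-high members carried plasmacytoid markers: 16 of the 20 had a UMI of Siglech, 16 of Ccr9, 10 of Ly6d, 9 of Cox6a2 and 9 of Klk1, and 3 had none of any of these 5. Siglech, a surface lectin of plasmacytoid cells, was at 2563 CPM (2252 to 2905) in the DPCP and 1378 CPM (1194 to 1581) in the control cells of this kind, and at least 2 UMIs of it were found in 15 of the 20. In the 56 Tcf4-low members Siglech had 0 UMIs in DPCP and 2 in control cells. Klk1, Cox6a2 and Grm8 had 86, 95 and 345 UMIs in the Tcf4-high members and 0 in the Tcf4-low members. Ly6d had 107 UMIs in the Tcf4-high and 3 in the Tcf4-low members, and the chemokine receptor gene Ccr9 had 127 and 9. Cd209a, the gene that defines type 2 dendritic cells below, had at most 2 UMIs per Tcf4-low member, save 1 control cell with 11. Several Tcf4-high members held it too, with up to 15 UMIs in a DPCP and 12 in a control cell. These 20 cells made up 36.0% of the DPCP members and 21.6% of the control members, so any summed level mixes the kinds in different proportions in the 2 conditions. All 9 of the DPCP cells among them had under 80% of their tag UMIs from the DPCP tag (median 66.1%), as had 2 of the 16 Tcf4-low DPCP members. A low share was common in DPCP skin, with 2860 of 7588 kept cells under 80%. Of the DPCP T cells and type 2 dendritic cells defined below, 166 of 240 and 31 of 163 were under it. No kept control cell, and so no control member, fell under 80%. Levels and ratios below are over all members unless the Tcf4-low members are named.

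**Figure D2:**
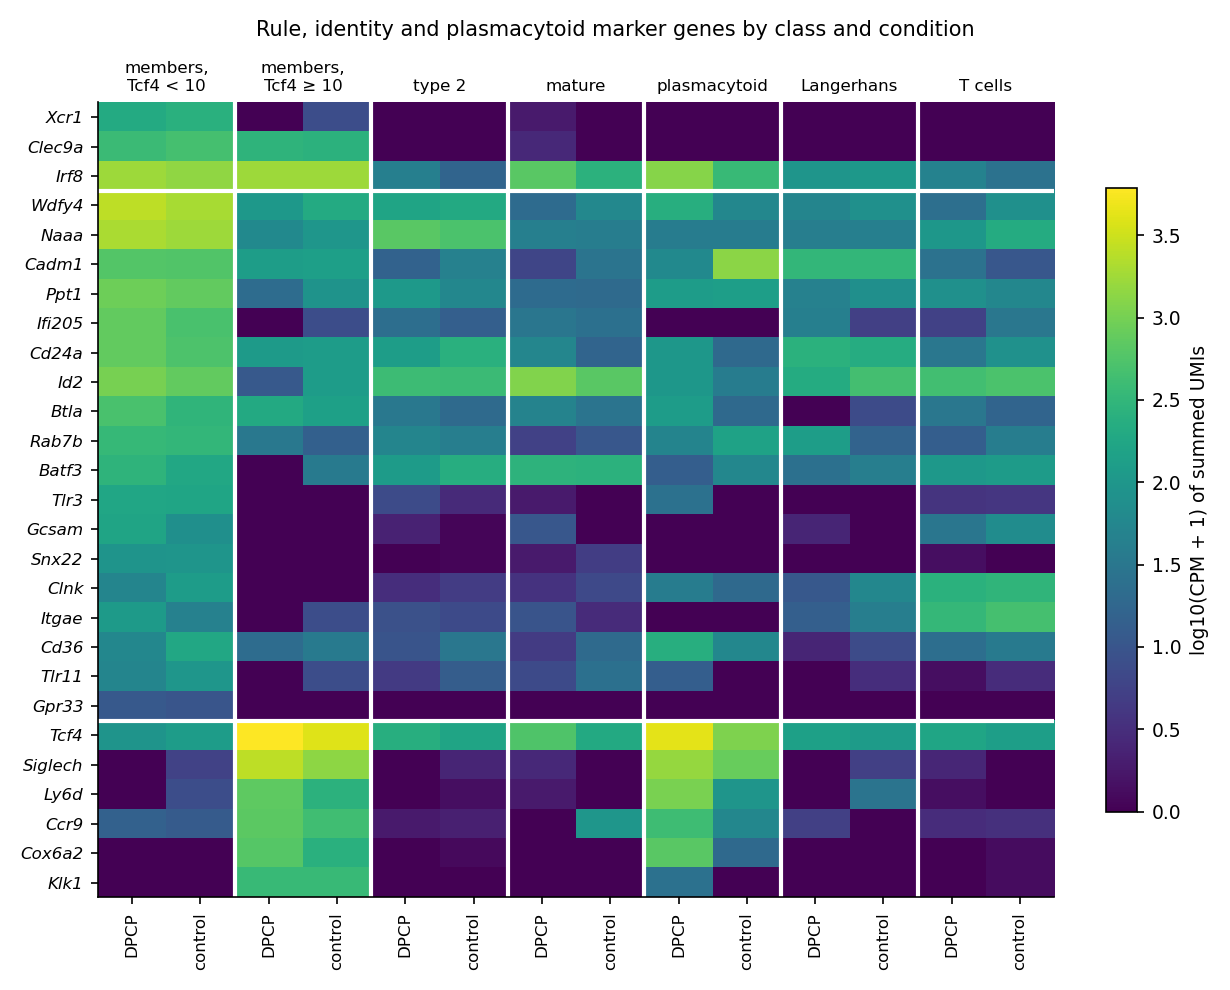
Colour gives log10(CPM + 1) of summed UMIs for 3 genes of the rule (top block), 18 identity genes (middle) and 6 plasmacytoid markers (bottom), with DPCP left of control in each class. Most rows of the middle block are brightest in the members with under 10 Tcf4 UMIs. Itgae and Clnk are brighter in T cells, and Batf3, Id2, Cadm1 and Cd36 are brighter in another class in DPCP or control skin. The bottom block is bright in the members with at least 10 Tcf4 UMIs and in the plasmacytoid class, which by its definition holds no Xcr1 or Clec9a UMI.

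Genes most restricted to the members were ranked by the share of their UMIs, over all kept cells, that lay in members, who held 0.927% of all UMIs. Apart from Xcr1 (72.2%) and Clec9a (49.5%), which the rule used, the highest were Gm43914 (63.4%) and Snx22 (52.3%), a sorting nexin. Gm43914 is annotated inside Clec9a on the same strand, so its share follows from the rule and is not a separate result. Snx22 had 67 UMIs in the Tcf4-low and 0 in the Tcf4-high members, at 67.4 CPM in DPCP and 69.7 CPM in control members overall. Next came Klk1 (48.6%), a kallikrein protease, Gm21762 (44.4%) and Grm8 (34.95%), a glutamate receptor, with UMIs only in Tcf4-high members. Gramd2 (33.7%) had UMIs only in Tcf4-low members. Mycl (32.4%), a MYC family transcription factor needed for dendritic cell fitness, had 49 UMIs in the Tcf4-low and 20 in the Tcf4-high members. The ranking over a whole pool thus drew its leading genes from both kinds.

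The profile was next set against type 2 dendritic cells, which prime CD4 T cells. These were defined by at least 2 UMIs of Cd209a with none of Xcr1, Clec9a, Ccr7 or Cd3e and under 20 of S100a8 and S100a9 (163 DPCP and 622 control cells). The median type 2 cell had 13556 UMIs in DPCP and 10703 in control skin. Cd163 and Mrc1, both on the macrophage marker list used below, had a UMI in 50.8 and 89.7% of these cells. The class is thus named by Cd209a only, and whether it also holds macrophages was not tested. Members stood above type 2 cells in both conditions for the 18 identity genes other than Batf3 and Gpr33. Gpr33 is a receptor gene with 3 UMIs in DPCP and 4 in control members and 0 in type 2 cells, too few to read. Wdfy4 was 12.3-fold (10.8 to 13.9) higher in DPCP and 7.71-fold (7.09 to 8.38) higher in control members. Cadm1 was 32.9-fold (22.7 to 48.9) and 10.3-fold (8.75 to 12.1) higher, and Naaa, which type 2 cells also carry, 2.31-fold (2.097 to 2.54) and 2.52-fold (2.33 to 2.72). Batf3 was 1.84-fold (1.42 to 2.36) higher in DPCP members than in DPCP type 2 cells. In control skin it was lower in members, at 149.7 CPM against 228 CPM in type 2 cells (ratio 0.656, 0.523 to 0.813). In the Tcf4-low members Batf3 was at 286 CPM in DPCP and 188 CPM in control skin.

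Among all genes outside the rule, the 12 with the highest mean ratio over type 2 cells began with Gcsam, a signalling adaptor of lymphocytes, which had 122 CPM in DPCP and 56.1 CPM in control members, against 1.29 and 0.1298 CPM in DPCP and control type 2 cells. A UMI of Snx22 was found in 39.5% of members, against 1 of 785 type 2 cells (0.127%). Itga8, an integrin subunit, had 54.4 CPM in DPCP and 95.2 CPM in control members, against 0 and 0.2596 CPM in type 2 cells. Plce1, a phospholipase C, had 33.7 and 86.7 CPM in DPCP and control members, against 0 and 0.519 CPM in type 2 cells. The chemokine receptor gene Cxcr3 followed at 75.2 CPM in DPCP and 57.8 CPM in control members, against 0 and 1.17 CPM in type 2 cells. Tlr3 was 20.1-fold (11.1 to 38.6) higher in DPCP and 69.3-fold (38.8 to 133) higher in control members. Ifi205, an interferon-inducible gene of the p200 family, was 25.3-fold (18.6 to 34.97) and 29.1-fold (22.9 to 37.2) higher. Ifi205 has near-identical relatives, so its counts are uncertain. Fcrla, an intracellular Fc receptor-like protein, was 38.7-fold (14.95 to 127) and 24.2-fold (14.7 to 40.6) higher. Gm43914 was also among the 12, as follows from its place inside Clec9a.

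The remaining 3 came mainly from the Tcf4-high members. Ccr9 stood at 524 CPM in those, against 12.3 CPM in the Tcf4-low members. Cd300c, a surface receptor of the CD300 family, had 285 and 30.1 CPM in the Tcf4-high and Tcf4-low members, and Cacna1e, a calcium channel subunit, 520.2 and 39.6 CPM. Without the Tcf4-high members the mean log2 ratio over type 2 cells was 3.64 for Ccr9, 3.52 for Cd300c and 2.75 for Cacna1e, against 7.16, 5.48 and 4.81 with them.

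The 8 lowest genes relative to type 2 cells included known markers of type 2 cells and macrophages. Mgl2, a lectin of type 2 cells, had 0 UMIs in DPCP members and 13.6 CPM in control members, against 455 and 523 CPM in DPCP and control type 2 cells. In DPCP skin this set its ratio at no more than 0.0171. Cd163, a scavenger receptor of macrophages, had 0 and 8.504 CPM in DPCP and control members, against 148 and 161 CPM in type 2 cells. The lectin-like receptor Clec4a3 had 2.59 and 81.6 CPM in DPCP and control members, against 362 and 229.7 CPM in type 2 cells. Its relative Clec4a2 had 2.59 and 47.6 CPM in DPCP and control members, against 238 and 183 CPM in type 2 cells. Both had too few UMIs in members to enter the comparison of conditions. Mrc1, the mannose receptor, stood at 18.1 CPM in DPCP and 180.3 CPM in control members, against 1151 and 865 CPM in type 2 cells. Tmem176a, Plxna4 and Adgre4 completed the 8.

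Genes common to dendritic cells were detected in most members. Flt3, the growth factor receptor of the lineage, had a UMI in 25 of 25 DPCP and 43 of 51 control members. Its level was 485 CPM in DPCP and 337 CPM in control members (ratio 1.44, 1.17 to 1.77). Cst3, a protease inhibitor abundant in dendritic cells, stood at 8144 CPM in DPCP and 8549 CPM in control members. Zbtb46, a transcription factor of conventional dendritic cells, had 169 CPM in DPCP and 225 CPM in control members (0.751, 0.549 to 1.02). None of the 9 measured genes of this list differed 2-fold.

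Markers of other cells differed between the conditions within the members. The summed level of 8 macrophage markers was 46.7 CPM in DPCP members, with C1qa, Cd163 and Folr2 at 0, and 437 CPM in control members, where all 8 were detected. Per cell it ran up to 276 CPM (median 0) in DPCP and up to 2183 CPM (median 59.8) in control members. The 6 plasmacytoid markers summed to 2818 CPM in DPCP and 1776 CPM in control members, the 5 monocyte markers to 1566 and 1276 CPM, and the 6 type 2 markers to 210.0 and 478 CPM. Neutrophil markers summed to 591 CPM in DPCP and 543 CPM in control members. Of these sums S100a8 and S100a9, which the rule limits, made 472 and 449 CPM, so the sums were bounded by the rule. Of the mature list Ccr7 was barred by the rule and Fscn1 was at 0 in both conditions. Mature markers summed to 20.7 CPM in DPCP and 22.1 CPM in control members. The part of these markers in the condition differences below was not tested.

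DPCP and control members were then compared gene by gene over 3650 genes with at least 50 summed UMIs. A ratio of at least 2 was reached by 94 genes (2.58%), and a ratio of at most 0.5 by 173 genes (4.74%). The median log2 ratio was 0.04. In the Tcf4-low members 98 of 2797 genes were higher (3.504%) and 159 lower (5.68%), and 55 of the 98 and 101 of the 159 were also called over all members. Type 2 cells, which hold more UMIs and so more measured genes, had 354 of 9620 genes higher (3.68%) and 358 lower (3.72%). With 1 tagged sample per condition these are differences between the sampled cells. The 24 genes named below had the 12 highest and 12 lowest ratios among genes whose interval excluded 1 and whose UMIs in the higher condition did not lie mostly in 1 cell. T cells served as a rough check on RNA free in the droplets. Every cell was thinned to 1000 UMIs in 1 random draw, and a draw at 2000 UMIs was set beside it. For each gene the share of members with a UMI was then set beside that of T cells (240 DPCP and 268 control cells). T cells can make a gene themselves, so their share does not tell free RNA from RNA of their own. In the Tcf4-low members the 12 higher genes had ratios of 3.26 to 21.8 and the 12 lower genes 0.0317 to 0.217. Of these 24 ratios 1, that of Gpr171, lay outside the interval over all members. Rab27a, Gpr171, Clec4b1 and Pparg, which set the ends of these ranges, had under 50 summed UMIs in the Tcf4-low members. So had Zdhhc23, Bcl3, Cd84 and Rras2, and these ratios fall short of the minimum used above.

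**Figure D3:**
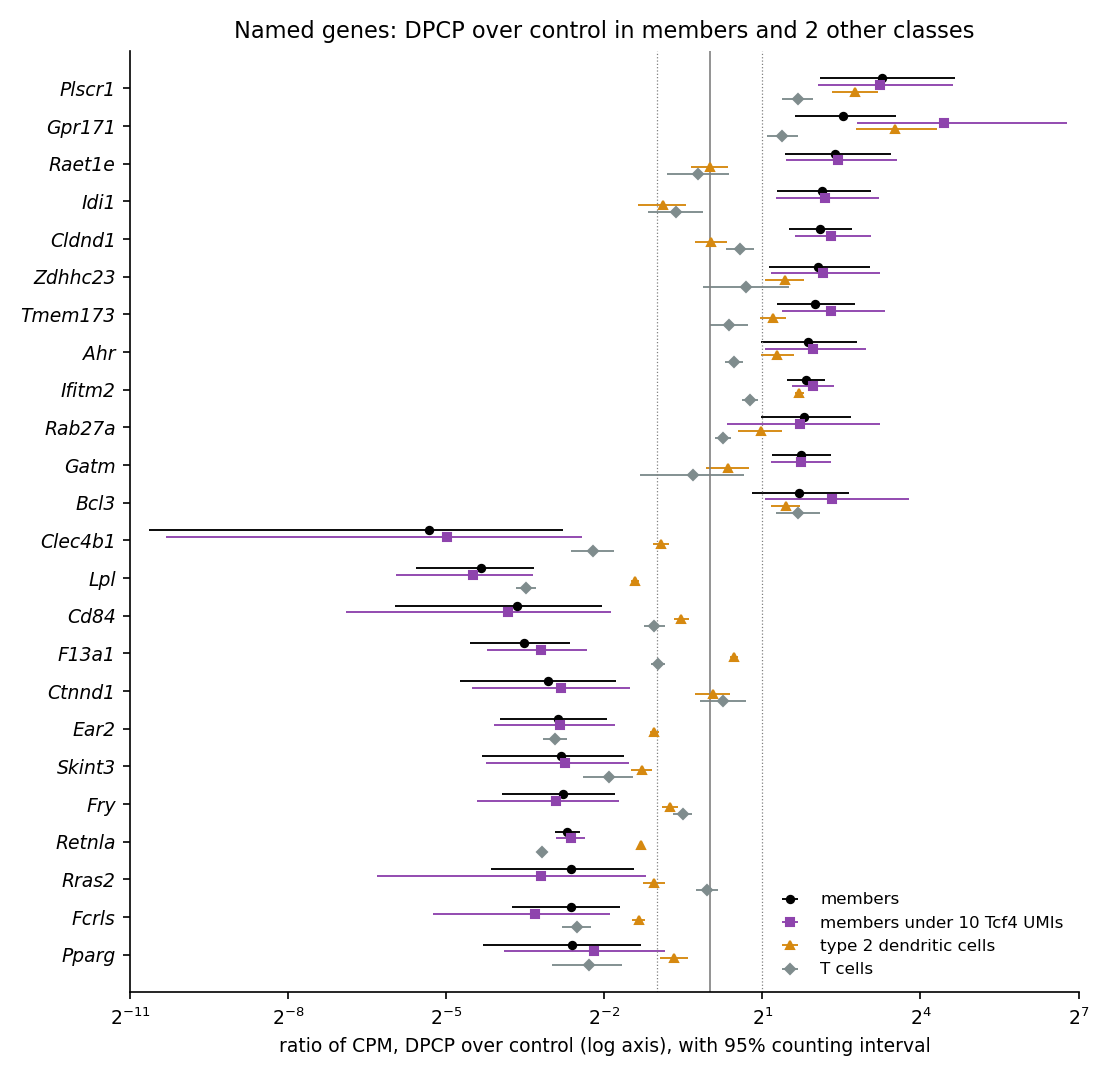
Ratios of CPM, DPCP over control, on a log axis with 95% counting intervals for the 12 highest and 12 lowest genes, in members (black), members with under 10 Tcf4 UMIs (purple), type 2 dendritic cells (orange) and T cells (grey); dotted lines mark ratios of 0.5 and 2. Ear2, Retnla, Fcrls and Pparg have T cell ratios between 0.1098 and 0.203, while Ctnnd1 is at 1.04 in type 2 cells and 1.19 in T cells.

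Of the 12 higher genes, 8 had a thinned share in DPCP members above that in DPCP T cells, at 1000 and at 2000 UMIs. Of these 8 shares, 2 at 1000 UMIs (Gatm and Tmem173) and 4 at 2000 UMIs (Gatm, Cldnd1, Idi1 and Ifitm2) had an interval wholly above the T cell share, and the other intervals contained it. Gatm, which makes the creatine precursor guanidinoacetate, was the clearest: its UMIs per cell ran from 0 to 13 in DPCP members (median 1) and from 0 to 5 in control members (median 0). Gatm UMIs lay only in Tcf4-low members, in 16 of 16 DPCP and 20 of 40 control cells. Its level was 226 CPM (181 to 278) in DPCP and 68.03 CPM (48.6 to 92.6) in control members, a ratio of 3.32 (2.26 to 4.95). It was 3.31 (2.25 to 4.94) in the Tcf4-low members. The ratio in type 2 cells was 1.27 (0.956 to 1.67), and the thinned share was 24.0% of DPCP members, against 0.833% of DPCP T cells. The intervals of the 2 ratios did not overlap.

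Cldnd1, a claudin-like membrane protein, had 239 CPM (192 to 293) in DPCP and 56.1 CPM (38.6 to 78.8) in control members (ratio 4.25, 2.83 to 6.53). Its UMIs were in 20 of 25 DPCP members and 22 of 51 control members. The ratio was 1.02 (0.823 to 1.26) in type 2 cells and 1.49 (1.24 to 1.80) in T cells. After thinning, 24.0% (9.36 to 45.1) of DPCP and 3.92% (0.478 to 13.5) of control members held a UMI, against 10.8% and 4.85% of DPCP and control T cells. The interval of the DPCP share contained the T cell share. The ratio in the Tcf4-low members was 4.96 (3.07 to 8.296).

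Tmem173, which encodes STING, the adaptor of cytosolic DNA sensing, had 156 CPM (119 to 200.2) in DPCP and 39.1 CPM (24.8 to 58.7) in control members (ratio 3.98, 2.42 to 6.74). Its UMIs per cell had a median of 2 (0 to 8) in DPCP and 0 (0 to 3) in control members. Type 2 cells showed 2.30-fold (1.94 to 2.72) and T cells 1.28-fold (1.01 to 1.64) more in DPCP skin. Zdhhc23, a palmitoyltransferase, was 4.14-fold (2.19 to 8.27) higher in members and 2.68-fold (2.07 to 3.47) in type 2 cells. Ifitm2, an interferon-induced restriction factor, had 542 CPM in DPCP and 153 CPM in control members (3.54, 2.75 to 4.58), close to the 3.25-fold (3.08 to 3.44) of type 2 cells. Its thinned share of 24.0% in DPCP members stood beside 19.2% in DPCP T cells. In the Tcf4-low members the ratio was 4.91 for Tmem173 and 3.89 for Ifitm2.

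Idi1 and Raet1e were not higher in type 2 cells. Idi1, an isomerase of cholesterol synthesis, had 119 CPM in DPCP and 27.2 CPM in control members (4.38, 2.44 to 8.29), against a ratio of 0.538 (0.388 to 0.732) in type 2 cells. A single DPCP cell held 34.8% of its DPCP UMIs. Raet1e, a ligand of the NKG2D receptor, had 5.21-fold the control level in DPCP members (2.69 to 10.9), and 1 cell contributed 48.8% of the DPCP UMIs. In type 2 cells its ratio was 0.997 (0.781 to 1.26). Raet1e belongs to a family of near-identical genes, and its counts are uncertain. Bcl3, an atypical inhibitor protein of NF-kappaB, was 3.24-fold (1.74 to 6.28) higher, with a UMI in 18 of 25 DPCP and 9 of 51 control members. For Raet1e, Idi1 and Zdhhc23 the place above the T cells at 1000 UMIs rested on 1 of 25 DPCP members (4.0%, 0.101 to 20.4), beside 1.67, 2.5 and 1.67% of DPCP T cells. Among Tcf4-low members the ratio was 5.39 for Raet1e, 4.56 for Idi1 and 4.999 for Bcl3. That of Bcl3 came from only 23 UMIs in DPCP and 7 in control cells.

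The remaining 4 higher genes were at or below the T cell share in DPCP members after thinning to 1000 UMIs. Plscr1, an interferon-induced scramblase, had the highest ratio, 9.58 (4.28 to 25.2), from 44 UMIs in DPCP and 7 in control members. It was also higher in type 2 cells (6.76, 5.02 to 9.17) and T cells (3.18, 2.60 to 3.91), and its thinned share was 0% of DPCP members beside 13.8% of DPCP T cells. At 2000 UMIs it was 24.0%, beside 26.2%. Gpr171, a receptor known from T cells, had 127 CPM in DPCP and 22.1 CPM in control members (5.75, 3.07 to 11.5). Among Tcf4-low members its ratio was 21.8 (6.98 to 109.9), from 43 UMIs in DPCP and 3 in control cells. Its thinned share at 2000 UMIs was 24.0% (9.36 to 45.1) of DPCP members, above the 21.2% of DPCP T cells. In type 2 cells it was 11.4-fold (6.85 to 19.8) higher. Ahr, the aryl hydrocarbon receptor, was 3.62-fold (1.97 to 6.95) and Rab27a, a GTPase of vesicle transport, 3.47-fold (1.95 to 6.42) higher in members. DPCP T cells held 267 CPM of Ahr and 268 CPM of Rab27a, against 98.5 and 106 CPM in DPCP members. For these 2 genes the T cell share is thus no measure of free RNA alone. The log2 ratio of Rab27a was 0.62 among members with at least 80% of tag UMIs from their own tag, against 1.80 over all. That limit left out all 9 Tcf4-high DPCP members and no control member, so it also changed the mix of kinds. In the Tcf4-low members the ratio of Rab27a was 3.26 (1.25 to 9.45), from 15 UMIs in DPCP and 7 in control cells.

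Of the 12 lower genes, 8 had a thinned share in control members at or below that of control T cells. The part of RNA free in the droplets in these differences was not tested. Retnla, which encodes RELM-alpha, had 417 CPM in DPCP and 2718 CPM in control members (ratio 0.154, 0.1298 to 0.181). Per cell, the median was 6 UMIs (0 to 21) in DPCP members and 4 (0 to 640) in the less deep control members. After thinning to 1000 UMIs, 40.0% of DPCP and 49.0% of control members held a Retnla UMI. A single control cell held 40.1% of the control UMIs. T cells had a UMI of Retnla in 98.3% of DPCP and 97.8% of control cells and a ratio of 0.1098 (0.104 to 0.116). Without the 2 control members over 40000 UMIs the log2 ratio in members was -2.18, against -2.70 with them, and without the 10% of members with most UMIs it was -1.50.

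Lpl, lipoprotein lipase, was similar: DPCP members had at most 1 UMI, control members up to 75, and 2 deep control cells held 41.9% of the control UMIs. Its ratio was 0.0492 (0.0210 to 0.0984) in members, 0.373 (0.352 to 0.395) in type 2 cells and 0.0896 (0.0784 to 0.102) in T cells. The other 6 were F13a1 (coagulation factor XIII, ratio 0.0869), Cd84 (0.0788), Ear2 (an eosinophil-associated ribonuclease with near-identical relatives, 0.135), Fry (0.146), Fcrls (0.1605) and Pparg (0.162). F13a1 was not lower in type 2 cells, where the ratio was 1.38 (1.31 to 1.44). In T cells the ratio was 0.504 (0.460 to 0.552) for F13a1, 0.481 (0.419 to 0.552) for Cd84 and 0.702 (0.6205 to 0.793) for Fry. The members' intervals lay wholly below these, at 0.0427 to 0.159 for F13a1, 0.0158 to 0.242 for Cd84 and 0.0647 to 0.289 for Fry. These intervals leave out the spread between cells. For F13a1, Cd84 and Fry the top control cell held 30.6, 32.8 and 31.9% of the control UMIs. The 2 control cells over 40000 UMIs held 40.4, 36.2 and 36.2%. For Ear2, Fcrls and Pparg the top control cell held 28.3, 43.2 and 38.3%.

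Ctnnd1, Skint3, Clec4b1 and Rras2 were the 4 lower genes above the T cell share at 1000 UMIs. Intervals lay wholly above that share for Ctnnd1 and Skint3 at 1000 UMIs, and for Ctnnd1 alone at 2000 UMIs. For Rras2 the order turned at 2000 UMIs, with 8.16% (2.27 to 19.6) of control members beside 19.8% of control T cells, against 9.80% beside 8.96% at 1000. Ctnnd1 encodes p120-catenin, which holds cadherins at the membrane. Its UMIs were in 3 of 25 DPCP members (5 UMIs, at most 3 per cell) and in 24 of 51 control members (64 UMIs, at most 7 per cell). Its level was 12.96 CPM (4.21 to 30.3) in DPCP and 109 CPM (83.8 to 139) in control members, a ratio of 0.119 (0.0374 to 0.293). It was 0.141 (0.0440 to 0.349) in the Tcf4-low members. No control cell held more than 10.9% of the control UMIs. The ratio was 1.04 (0.826 to 1.304) in type 2 cells and 1.19 (0.883 to 1.601) in T cells. The thinned share was 4.0% of DPCP and 13.7% of control members, against 3.33% and 2.24% of DPCP and control T cells. The members' interval lay wholly below those of both other classes.

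Skint3, a gene of a family with near-identical copies known from keratinocytes, was at 15.6 CPM in DPCP and 111 CPM in control members (0.141, 0.0498 to 0.323), with 26.2% of the control UMIs in 1 cell. It was also lower in type 2 cells (0.408, 0.356 to 0.466) and T cells (0.265, 0.188 to 0.366). Clec4b1, a C-type lectin, had 1 UMI in DPCP and 61 in control members (ratio 0.02499, 0.000623 to 0.145). The 2 control members over 40000 UMIs held 41.0% of those control UMIs. Its ratio was 0.524 (0.471 to 0.581) in type 2 cells and 0.214 (0.161 to 0.282) in T cells. Rras2, a RAS-related GTPase, had 6 UMIs in DPCP and 57 in control members (0.1605, 0.0565 to 0.371), and 33.3% of the control UMIs were in 1 cell.

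**Figure D4:**
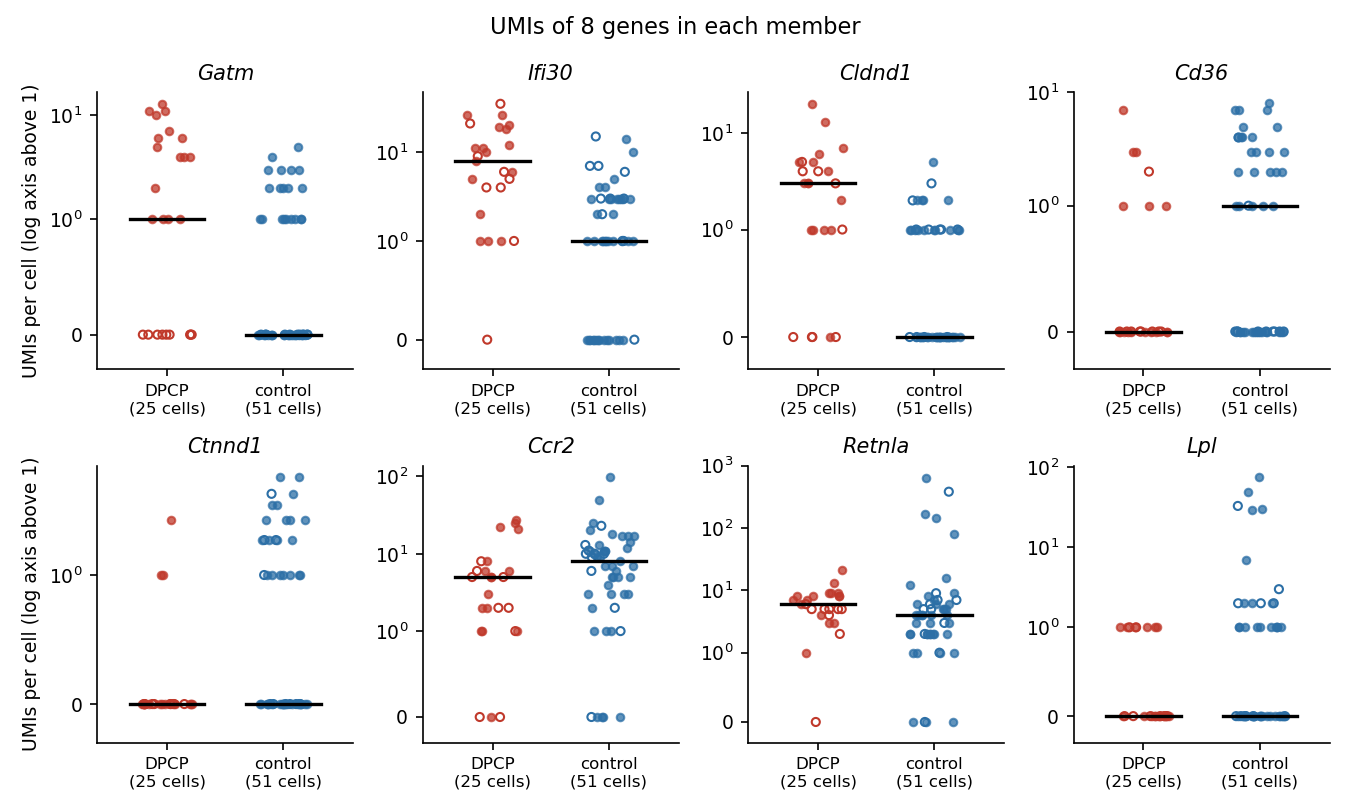
UMIs of 8 genes in each of the 25 DPCP (left) and 51 control members (right), on axes that are logarithmic above 1; filled points are members with under 10 Tcf4 UMIs, open points those with at least 10, and black lines are medians over all members of a condition. Gatm, Ifi30 and Cldnd1 have higher medians in DPCP members, while the control excess of Retnla and Lpl lies in a few cells. UMIs are not scaled to depth, which was higher in the median DPCP member.

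By list, most genes of known function stayed within 2-fold, and each count is read against the 2.58% higher and 4.74% lower among all measured genes. Of the 18 identity genes 17 were measured, 2 of them higher and 2 lower. Itgae, the CD103 integrin subunit of skin and gut type 1 cells, had 85.6 CPM in DPCP and 35.7 CPM in control members (2.395, 1.35 to 4.36). T cells held more Itgae, at 338 CPM in DPCP and 474 CPM in control skin. Gcsam had a ratio of 2.17 (1.36 to 3.498). Clnk, a signalling adaptor, had 38.9 CPM in DPCP and 93.5 CPM in control members (0.416, 0.218 to 0.746), from 15 and 55 UMIs. It too was higher in T cells, at 258 CPM in DPCP and 301 CPM in control skin. Cd36, a scavenger receptor for lipids and dying cells, had 46.7 CPM in DPCP and 148 CPM in control members (0.315, 0.179 to 0.528). Its UMIs were in 7 of 25 DPCP and 26 of 51 control members, and its ratio in type 2 cells was 0.284. The list's median log2 ratio of 0.25 has no stable direction. This median was -0.26 without the 10% of members with most UMIs and -0.28 as a mean of single-cell CPM. Under a limit of 5 S100a8 and S100a9 UMIs it was -0.24.

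Other identity genes stayed within 2-fold. Wdfy4 was at 1989 CPM (1850.4 to 2134) in DPCP and 1517 CPM (1419 to 1620.1) in control members (1.31, 1.19 to 1.45). Cadm1 was at 479.7 and 471 CPM (1.02, 0.841 to 1.23), and Tlr3 at 129.6 and 126 CPM (1.03, 0.705 to 1.49). Xcr1, a gene of the rule, was at 153 CPM (116 to 197) in DPCP and 190.5 CPM (157 to 229) in control members, and Clec9a at 355 CPM (298 to 419.9) and 413 CPM (363 to 469). Btla, an inhibitory receptor, had a ratio of 1.66 (1.33 to 2.09).

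MHC class I presentation had 17 of 17 genes measured and none past 2-fold, with a median log2 ratio of 0.19. Within it the immunoproteasome genes Psmb8 (596 CPM in DPCP and 371 CPM in control members, ratio 1.61, 1.33 to 1.94) and Psmb9 (1.72, 1.36 to 2.17) and the proteasome activator Psme1 (773 and 464 CPM, 1.66, 1.41 to 1.97) had intervals above 1. In type 2 cells the same genes had ratios of 0.912, 1.04 and 1.06. H2-K1 (0.855, 0.738 to 0.9899) and H2-D1 (0.8105, 0.705 to 0.9299), the classical heavy chains, had intervals below 1. Of the cross-presentation list 10 of 11 genes were measured and none passed 2-fold. Cybb, the NADPH oxidase subunit, had a ratio of 0.756 (0.598 to 0.9498) over all members and 0.159 (0.0772 to 0.297) in the Tcf4-low members.

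MHC class II presentation had 11 of 12 genes measured and 1 higher. That gene, Ifi30, encodes GILT, the thiol reductase that opens antigens in the endosome. Its UMIs per cell had a median of 8 (0 to 35) in DPCP and 1 (0 to 15) in control members, with 24 of 25 and 36 of 51 cells positive. Ifi30 stood at 679 CPM in DPCP and 211 CPM in control members (3.22, 2.59 to 4.02). The ratio was 2.65 in type 2 cells and 1.599 (1.41 to 1.82) in T cells. The class II chains themselves were nearly level: H2-Ab1 had 4384 CPM in DPCP and 4574 CPM in control members (0.959, 0.902 to 1.02), H2-Aa 4102 and 4085 CPM (1.004, 0.942 to 1.07), and Cd74 8797 and 7785 CPM (1.13, 1.08 to 1.18).

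**Figure D5:**
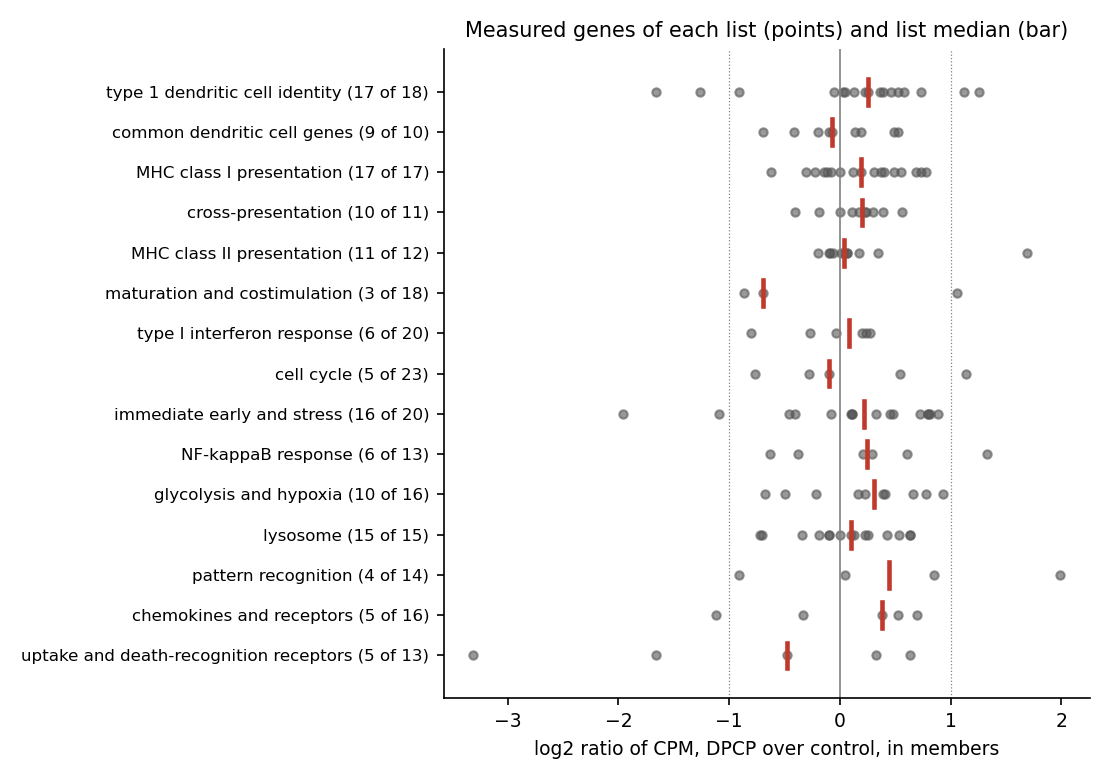
Each row is a gene list with the number of measured genes of its total; grey points are log2 ratios of CPM, DPCP over control, in members, red bars are list medians and dotted lines mark 2-fold. Medians lie between -0.70 for maturation, where 3 genes were measured, and 0.44 for pattern recognition, where 4 were.

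Of the maturation list, with Ccr7 barred by the rule, only 3 of 18 genes were measured. Cd83, a surface protein of activated dendritic cells, was higher (117 CPM in DPCP and 56.1 CPM in control members, 2.08, 1.297 to 3.36). Cd86 (0.617, 0.407 to 0.918) and Il15 (0.549, 0.301 to 0.957) had intervals below 1. Cd40 had 2 UMIs in each condition, and Il12b and Ccl17 had none. The type I interferon list had 6 of 20 genes measured and none past 2-fold, with a median of 0.08. In the Tcf4-low members Ly6e was lower (0.484, 0.382 to 0.609), whereas in type 2 cells it was 2.12-fold higher. Isg15 fell under the minimum, with 6 UMIs in DPCP and 43 in control members, 29 of them in 1 cell. The interferon-gamma list had 1 measured gene, Irf1 (1.48, 0.896 to 2.44). Cxcl9, a ligand of CXCR3, had 16 UMIs in DPCP members, 15 of them in 1 cell, and none in control members.

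Immediate early and stress genes had 16 of 20 measured, none higher and 2 lower. Klf4, a transcription factor of monocytic cells, was at 62.2 CPM in DPCP and 242 CPM in control members (0.258, 0.1598 to 0.399), with a UMI in 11 of 25 DPCP and 35 of 51 control members and a ratio of 1.08 in type 2 cells. Jun was lower (0.469, 0.284 to 0.749), but had a ratio of 0.738 (0.379 to 1.38) in the Tcf4-low members. Fos, Junb, Zfp36, Btg2 and Dusp1 had ratios of 1.65 to 1.85. Of the NF-kappaB list 6 of 13 were measured, and Il1b was higher (2.504, 1.53 to 4.16), as in type 2 cells (2.78). Cell cycle genes were sparse, with 5 of 23 measured, among them Hmgb2 (2.21, 1.75 to 2.795) as the 1 higher gene. Of its 181 DPCP UMIs 102 were in 1 cell. Mki67, a marker of cycling cells, had a UMI in 4 of 25 DPCP and 6 of 51 control members.

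Receptors for chemokines and uptake were the remaining lists. Ccr2, which draws cells from blood into inflamed tissue, was counted well: 425 CPM in DPCP and 922 CPM in control members (0.461, 0.385 to 0.5503), with a ratio of 0.459 (0.376 to 0.558) in the Tcf4-low members and 1.04 in type 2 cells. Per cell, DPCP members had a median of 5 UMIs (0 to 27) and control members 8 (0 to 97), at the lower depth of the control cells. T cells also had less Ccr2 in DPCP skin (0.604, 0.561 to 0.651). Of 5 measured uptake receptors Mrc1 (0.101, 0.0395 to 0.215) and Cd36 were lower. Mrc1 had 65 of its 106 control UMIs in 1 cell, and its thinned share of 7.84% in control members lay below the 21.6% of control T cells. Havcr2, which encodes TIM-3, was 1.55-fold (1.03 to 2.34) higher. The lysosome list (15 of 15) and the glycolysis list (10 of 16) had no gene past 2-fold, with medians of 0.10 and 0.31. Tmem173 was the 1 gene called among 4 measured pattern recognition genes.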

How the data were processed

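The authors deposited UMI counts per gene and barcode, without normalization. Per the file headers they were made with Cell Ranger 7.0.0; the submitters' processing notes name Cell Ranger 6.1.1, Seurat 4.0.1 and mm10. Each barcode's suffix gave its tagged sample by the row order of the deposited aggregation table. The members, gene lists and comparison classes were chosen with earlier results of these data known, and the line at 10 Tcf4 UMIs, the T cell check and the alternatives named as added in the closing section after further results. For each condition the members' UMIs were added up and expressed as CPM, with Poisson intervals by the exact method. Ratios are DPCP over control with exact conditional binomial intervals, shares have exact binomial (Clopper-Pearson) intervals, all at 95%, and a sum of 0 was set to 3 counts. A gene was measured with at least 50 summed UMIs and called at a ratio of at least 2 or at most 0.5. Named genes had intervals that excluded 1 and at most 50% of the UMIs of the higher condition in 1 cell. Profile genes had a UMI in at least 25% of members, or of type 2 cells for the lower ones. No doublets were removed. Of the list symbols 4 had no row of that name in the matrix. Ratios were checked on simulated counts. Python 3.11.15, numpy 2.4.6, scipy 1.17.1, pandas 2.3.3 and, for TMM factors, edgeR 4.0.16 in R 4.3.3 were used.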

Additional observations from a re-analysis of the deposited data

How the results depend on the processing

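No paired analysis was possible because each condition is 1 tagged sample. The DPCP share of members became 0.171% with a UMI of each of Xcr1 and Clec9a required, 0.0791% with under 5 S100a8 and S100a9 UMIs, 0.967% and 0.6997% on the bases of cells under 20 such UMIs and of cells with at least 5000 UMIs, and 0.211% without members of at least 10 Tcf4 UMIs; the control share became 0.765% with at least 3 UMIs of Xcr1 and Clec9a, 0.503% with both genes and 0.443% with under 5 S100a8 and S100a9 UMIs. Against 94 genes higher and 173 lower, the counts were 42 and 69 with under 5 S100a8 and S100a9 UMIs (6 DPCP members), 286 and 553 with at least 20 summed UMIs, and 28 and 71 with at least 100. Lower genes numbered 69 with both genes required and 69 among members with an Xcr1 UMI. With at least 80% own tag they numbered 280, where 14 DPCP members were left and all 9 Tcf4-high DPCP members dropped out. Higher genes numbered 168 as means of single-cell CPM. The thinned Ifitm2 share in DPCP members was 52.0% at 2000 UMIs, against 24.0% at 1000. The bases, the Tcf4 and Xcr1 splits and the removal of the 2 members over 40000 UMIs were chosen after seeing the data. None of 292 recomputed ratios of the 24 named genes changed sign, and 23 left their interval. Alternatives that left a gene under 20 UMIs were not counted. Because these genes were chosen for extreme ratios in the same cells, an unchanged sign was likely beforehand and is no independent support. Of 208 list medians 3, of the identity list, changed sign (-0.24, -0.26 and -0.28). Of 80 profile ratios 4 left their interval. The cause of these shifts was not tested. Depth limits all of this: most lists had few measured genes, and 25 DPCP members cannot show small differences.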

Other observations

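Idi1 belongs to cholesterol synthesis, and a list of 14 genes of that pathway was chosen after the values were seen. In members they summed to 915 CPM in DPCP and 509 CPM in control cells (ratio 1.7997, 1.54 to 2.11), and in the Tcf4-low members to 976 and 358 CPM (2.72, 2.24 to 3.33). Type 2 cells had 280.3 CPM in DPCP and 336 CPM in control skin (0.834, 0.764 to 0.909). Fdps, which makes farnesyl diphosphate, was 2.95-fold (1.88 to 4.71) higher in members, Hmgcs1 1.76-fold (1.19 to 2.601) and Cyp51 1.63-fold (1.05 to 2.53). The sum lay mostly in few cells: 2 DPCP cells held 69.3% of the DPCP UMIs of the Tcf4-low members. Per Tcf4-low cell, the median was 160.5 CPM (32.1 to 4067) in DPCP and 135 CPM (0 to 1573) in control members. Scd2, a fatty acid desaturase, was 3.22-fold (2.002 to 5.29) higher in members and 0.9902-fold in type 2 cells.

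Timd4, a receptor for phosphatidylserine on dying cells, had 24 UMIs in DPCP and 4 in control members (ratio 9.15, 3.14 to 36.3), with 18 of the 24 in 1 cell. Socs1, a cytokine signalling inhibitor, had 8 UMIs in DPCP and 1 in control members. Both fall under the minimum of 50 summed UMIs and were picked for their size.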
